A study of Mus musculus with 4 samples.

Results

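The Slc25 genes encode the mitochondrial carrier family, and their transcripts were measured in the liver of fasted wild-type and Cnot3+/- mice. Members were all probe sets of the array that the platform annotation assigns to exactly 1 gene symbol made of Slc25a and a number. This gave 93 of 45101 probe sets, which belong to 44 genes. Each probe set is a group of short probes that reads 1 transcript region. The mice were male C57BL/6J animals, 12 weeks old, fed normal chow and then kept singly without food for 24 h. Of the 4 animals, 2 were wild-type and 2 were heterozygous for Cnot3, and each gave 1 one-colour Affymetrix array hybridised with biotin-labelled liver cRNA. The labels do not describe the Cnot3 allele, and no other allele or agent is named. The labels call the animals of each genotype biological replicates. With 2 arrays per genotype, the number of arrays limits the precision of every value.

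Mitochondrial carriers sit mostly in the inner mitochondrial membrane and exchange metabolites, nucleotides and cofactors between the matrix and the cytosol. Most share a fold built from repeats of paired membrane helices, and the TOM and TIM22 complexes insert them into the membrane. In liver they serve ATP export, the urea cycle, gluconeogenesis, citrate export for lipid synthesis and the import of acylcarnitines for fatty acid oxidation. The protein made from Cnot3 belongs to CCR4-NOT, a cytoplasmic complex that removes poly(A) tails from mRNAs before their decay. The question addressed here is whether carrier transcripts of the fasted liver depend on Cnot3 dose.

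The targeted gene did not separate the genotypes. Cnot3 read log2 values of 7.48 and 8.14 on arrays wild-type 1 and 2, against 7.70 and 7.86 on arrays Cnot3+/- 1 and 2, a difference of -0.03 (SE 0.25). The groups overlapped, so this probe set gives no check of the labels, and each direction below is that of the arrays as labelled. Where in Cnot3 the allele lies is not labelled, and a probe set outside the altered stretch would check nothing. Of 6 hepatocyte markers tested 4 had positive and 2 negative differences, with list means of -0.03 on Cnot3+/- 2 and 0.13 on Cnot3+/- 1 relative to wild-type. Among them Alb read 14.80 to 14.87 and Apob 12.70 to 13.43 over the 4 arrays. Markers of other cell types differed between the Cnot3+/- arrays, by amounts that varied with the list. Relative to wild-type, the 8 macrophage markers averaged 1.88 on array Cnot3+/- 2 but -0.24 on Cnot3+/- 1, and 8 of 8 had positive differences. For the 7 stellate cell markers these means were 0.66 and -0.42, and for the 5 measured T, NK and B cell markers 0.79 and -0.11. The 6 sinusoidal endothelial markers had negative differences, with means of -0.18 in Cnot3+/- 2 and -0.97 in Cnot3+/- 1. Of these 6, 4 separated the genotypes with Cnot3+/- lower and 0 with it higher, beside 17.4% and 14.1% of all genes tested. Neutrophil markers stood at 0.32 and -0.04, erythroid markers at -0.19 and -0.08, and cholangiocyte markers at 0.40 and 0.17. None of these markers passed the threshold of the test. The part of cell composition in the values below was not tested, and in whole liver fewer cells of a type cannot be told apart from less RNA per cell.

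No Slc25 gene passed the test between genotypes. Of the 44 genes, 38 had a probe set past the filter on dim signal, which left out the lowest 40% of probe sets by mean log2 value. The other 6 genes were Slc25a2, Slc25a18, Slc25a31, Slc25a35, Slc25a41 and Slc25a54, whose mean log2 values lay between 2.58 and 3.79. Among the 38 genes, limma with Benjamini-Hochberg adjustment over all 13379 genes tested gave a smallest adjusted p of 0.999 (threshold 0.05). Over all genes tested, 2 passed, or 0.0149%. At an unadjusted limma p under 0.05 there were 2 Slc25 genes, Slc25a17 and Slc25a48, or 5.26% of the 38, against 3.59% of all genes tested.

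Differences within the family were small and went both ways. Every difference given is on the log2 scale, with positive values where Cnot3+/- was higher. They ran from -0.41 for Slc25a17 to 0.63 for Slc25a25, with 21 positive and 17 negative values (23 and 15 with each array centred on its median, 20 and 18 after quantile normalization). The median was 0.04, beside -0.0087 over all genes tested, and the median size was 0.10, beside 0.12. Set against the average of both wild-type arrays, the family mean was -0.05 on wild-type 1 and 0.05 on wild-type 2, and 0.01 on Cnot3+/- 1 and 0.12 on Cnot3+/- 2. Cnot3+/- 1 thus lay between the wild-type arrays. The 2 genotypes did not overlap in 5 genes with Cnot3+/- higher, or 13.2%, beside 14.1% of all genes tested. They did not overlap in 6 genes with Cnot3+/- lower, or 15.8%, beside 17.4%. In either direction these were 11 genes, or 28.9%, beside 31.5%. These 3 shares were near the background. Both Cnot3+/- arrays lay above the wild-type mean in 16 genes, or 42.1%, beside 27.8% of all genes tested, and both lay below it in 7, or 18.4%, beside 31.8%. These shares stood further from the background, and they were not tested. The count of genes without overlap depended on the scaling in its split by direction. With each array centred on its median, 8 genes without overlap were higher and 4 lower, beside 16.5% and 15.7% of all genes. In either direction this was 31.6%, beside 32.1%. After quantile normalization 6 genes without overlap were higher and 7 lower, beside 12.1% and 20.1%, or 34.2% in either direction, beside 32.1%. For 35 of the 38 genes the 95% confidence interval left out a 2-fold difference in either direction, a share of 92.1% beside 92% of all genes tested, and the exceptions were Slc25a24, Slc25a25 and Slc25a51. The moderated standard errors of the 38 genes ran from 0.13 to 0.34, with a median of 0.16.

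**Figure D1:**
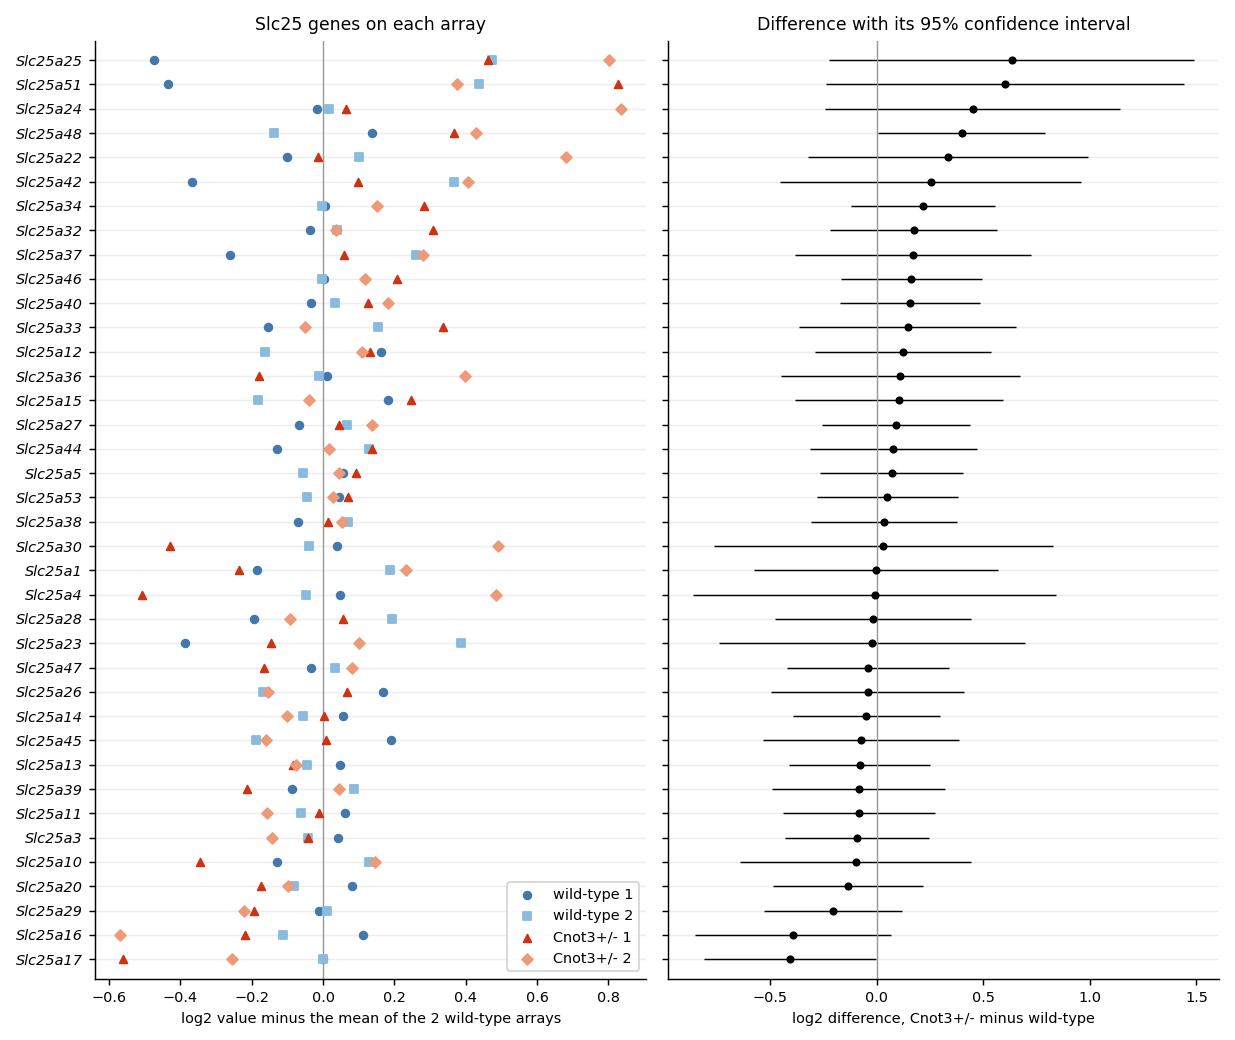
Left, log2 value of each of the 38 Slc25 genes on each of the 4 arrays, minus the mean of the 2 wild-type arrays. Right, the log2 difference Cnot3+/- minus wild-type (point) with its 95% confidence interval (line) from limma. Genes are sorted by difference. Intervals of 36 of the 38 genes cross 0, and those of Slc25a17 and Slc25a48 end just beside it.

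Carriers of adenine nucleotides and phosphate supply the matrix with ADP and phosphate and export ATP. Of 8 listed genes 6 were tested, 3 with positive and 3 with negative differences (4 and 2 with each array centred on its median), none past the threshold (median 0.03). Slc25a5, which encodes the ADP/ATP carrier of most tissues, read 12.66 and 12.55 on the wild-type arrays against 12.70 and 12.65 on the Cnot3+/- arrays. Its arrays overlapped, with a difference of 0.07 (SE 0.13). Slc25a3, the phosphate carrier gene, read 12.57 and 12.49 on the wild-type arrays against 12.49 and 12.38 on the Cnot3+/- arrays (difference -0.09, SE 0.13). Its groups did not overlap, but wild-type 2 and Cnot3+/- 1 lay only 0.0003 apart. Slc25a4, the ADP/ATP carrier gene best known from heart and muscle, read 6.35 and 6.25 on the wild-type arrays, 5.79 on Cnot3+/- 1 and 6.78 on Cnot3+/- 2. The Cnot3+/- arrays lay on opposite sides of wild-type, 0.99 apart, and the difference was -0.01 (SE 0.33), which turned to 0.001 with each array centred on its median. Without Cnot3+/- 2 it was -0.51, and without Cnot3+/- 1 it was 0.48. Slc25a4 and Slc25a5 are close paralogs, and cross-hybridisation between their probe sets was not tested.

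The ATP-Mg/phosphate carriers are regulated by calcium and set the adenine nucleotide content of the matrix. Slc25a25 had the largest difference of the family on the probe sets used. With the probe sets of a gene averaged it was 0.32, below the 0.67 of Slc25a51, and without wild-type 1 it was below Slc25a48. The wild-type arrays read 8.26 and 9.21, and the Cnot3+/- arrays 9.20 and 9.54. The low value is that of wild-type 1 alone, and wild-type 2 lay level with Cnot3+/- 1. The difference was 0.63 (SE 0.34, 95% interval -0.23 to 1.49, limma adjusted p = 0.999). It was 0.16 without wild-type 1 and 1.10 without wild-type 2. Slc25a23, a related carrier gene, was also lowest on wild-type 1, at 8.39 beside 9.16 on the other wild-type array, and read 8.63 and 8.88 on the Cnot3+/- arrays (difference -0.02, SE 0.28). Slc25a24 read 4.47 and 4.50 on the wild-type arrays, 4.55 on Cnot3+/- 1 and 5.32 on Cnot3+/- 2. Its difference of 0.45 (SE 0.27) rested on Cnot3+/- 2, since it was 0.06 without that array and 0.84 without Cnot3+/- 1. Cnot3+/- 2 is also the array on which the macrophage, T, NK and B cell and stellate cell marker means stood 1.88, 0.79 and 0.66 above wild-type. The sinusoidal endothelial, erythroid and hepatocyte marker means stood below wild-type there. The part of any cell type in Slc25a24 was not tested.

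Carriers of cofactors and nucleotides bring CoA, NAD, folate, S-adenosylmethionine and pyrimidine nucleotides to their organelles. Of 10 listed genes 8 were tested, with 5 positive and 3 negative differences, none past the threshold (median 0.13). Slc25a17 encodes a carrier of CoA and related cofactors in the peroxisomal membrane. It stood at 8.45 in both wild-type arrays, 7.89 in Cnot3+/- 1 and 8.20 in Cnot3+/- 2. Both Cnot3+/- arrays were lower, by 0.25 or more. The difference was -0.41 (SE 0.16, 95% interval -0.81 to -0.0048), or 1.33-fold lower, with a limma adjusted p of 0.999. Leaving out Cnot3+/- 2 made it -0.56, and leaving out Cnot3+/- 1 made it -0.25. A dimmer probe set of Slc25a17 read 4.58 and 4.45 on the wild-type arrays against 4.31 and 4.40 on the Cnot3+/- arrays, again without overlap (difference -0.16).

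Promoter sequence was available for 34 of the 44 genes, as 43 windows of 300 bases (250 before and 50 from a transcript start) from RefSeq on GRCm38.p6. Median GC content was 59.7% in these windows and 52.7% in all 32851 windows of the table. Both strands were searched for 6 short motifs, none of which holds another. The ETS core CCGGAAG was in 7 windows (16.3%, against 8.86% of all windows), the E-box CACGTG in 8 (18.6%, against 7.15%) and the CRE TGACGTCA in 2 (4.7%, against 1.79%). The hexamer AGGTCA, a single repeat of nuclear receptor elements, was in 4 (9.3%, against 16.26%), the TATA box core TATAAA in 1 (2.3%, against 13.62%) and the NRF-1 core GCGCATGCG in 0, which says only that these letters are not in these windows (1.75% of all windows hold them). A match is a description of the letters and not a binding site.

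Slc25a17 is shown because both of its probe sets separated the genotypes, and 2 of the 3 windows of Slc25a25 because its probe sets disagree and the one used had the largest difference among those used. The probe sets of Slc25a20 did the same as those of Slc25a17, and it holds an ETS core, but it is not shown. The choice was made with the values known, and how often all probe sets of a gene separate the genotypes over all genes was not counted. Capitals mark motif matches, the ETS core in the first 2 windows and the CRE in the last. The Slc25a25 window not shown and the window of Slc25a48 hold none of the motifs.
Slc25a17, chr15:81360716-81361015, minus strand: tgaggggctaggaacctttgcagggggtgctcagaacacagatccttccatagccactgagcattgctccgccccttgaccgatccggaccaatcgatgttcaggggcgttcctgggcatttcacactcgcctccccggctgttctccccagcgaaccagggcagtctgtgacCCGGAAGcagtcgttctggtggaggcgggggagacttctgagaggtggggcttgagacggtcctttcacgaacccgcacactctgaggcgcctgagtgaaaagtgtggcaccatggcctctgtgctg
Slc25a25, upstream start, chr2:32451421-32451720, minus strand: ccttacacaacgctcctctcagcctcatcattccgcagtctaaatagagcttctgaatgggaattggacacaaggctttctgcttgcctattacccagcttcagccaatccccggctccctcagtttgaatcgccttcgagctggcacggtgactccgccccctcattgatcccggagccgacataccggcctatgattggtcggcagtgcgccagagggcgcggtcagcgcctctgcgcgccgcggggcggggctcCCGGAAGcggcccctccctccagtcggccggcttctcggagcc
Slc25a25, downstream start, chr2:32424017-32424316, minus strand: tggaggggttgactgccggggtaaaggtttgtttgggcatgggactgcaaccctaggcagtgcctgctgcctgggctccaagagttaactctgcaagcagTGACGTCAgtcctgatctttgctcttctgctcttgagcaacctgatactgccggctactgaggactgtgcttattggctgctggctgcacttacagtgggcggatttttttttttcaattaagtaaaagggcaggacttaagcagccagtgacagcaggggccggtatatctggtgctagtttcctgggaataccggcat

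Slc25a16, which encodes a mitochondrial carrier linked to CoA, gave a similar value. It read 9.35 and 9.12 on the wild-type arrays against 9.02 and 8.67 on the Cnot3+/- arrays. The groups did not overlap, and the difference was -0.39 (SE 0.18, limma adjusted p = 0.999), from -0.57 without Cnot3+/- 1 to -0.22 without Cnot3+/- 2. Slc25a42, the carrier gene for CoA and adenine nucleotides in the inner membrane, had the opposite sign at 0.25 (SE 0.28). Its values were 8.42 and 9.16 on the wild-type arrays against 8.89 and 9.19 on the Cnot3+/- arrays, with wild-type 1 lowest. Without wild-type 1 its difference was -0.11.

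Slc25a51 encodes the carrier that brings NAD into mitochondria. It was chosen after its values were seen, because it had the second largest difference on the probe sets used. On the probe set used the wild-type arrays read 9.72 and 10.59, and the Cnot3+/- arrays 10.98 and 10.53. Wild-type 2 and Cnot3+/- 2 overlapped, and the difference was 0.60 (SE 0.33, limma adjusted p = 0.999). It was 0.17 without wild-type 1 and 1.04 without wild-type 2. On a second probe set the wild-type arrays stood at 8.07 and 8.47 and the Cnot3+/- arrays at 9.51 and 8.90, a difference of 0.94. On the last one they stood at 8.12 and 8.78 against 9.003 and 8.86, a difference of 0.48. The groups did not overlap on these other 2 probe sets, and wild-type 1 was the lowest array on all 3. With probe sets as the features of the test, each of the 3 had a limma adjusted p of 1.

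The other cofactor carriers lay closer to wild-type. Slc25a32, the folate and flavin carrier gene, differed by 0.17 (SE 0.15), Slc25a33 and Slc25a36, which carry pyrimidine nucleotides, by 0.14 (SE 0.20) and 0.11 (SE 0.22), and Slc25a26, the S-adenosylmethionine carrier gene, by -0.04 (SE 0.18). A brighter _s_at probe set of Slc25a26, not used for the gene by the rule on suffixes, differed by -0.24 without overlap, at 6.68 and 6.52 against 6.36 and 6.36. Slc25a36 stood at 5.55 in Cnot3+/- 1 and 6.13 in Cnot3+/- 2, on either side of 5.75 and 5.72 in wild-type.

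Amino acid carriers connect the urea cycle and the malate-aspartate shuttle with the matrix. Of 9 listed genes 7 were tested, 5 with positive and 2 with negative differences (4 and 3 after quantile normalization), none past the threshold (median 0.08). Slc25a13 encodes citrin, the liver aspartate/glutamate carrier. It read 10.93 and 10.84 on the wild-type arrays against 10.80 and 10.81 on the Cnot3+/- arrays, without overlap but 0.08 apart in the means (SE 0.13, Cnot3+/- lower). Its relative Slc25a12, which encodes aralar, differed by 0.12 (SE 0.16). Slc25a15, which encodes the ornithine/citrulline carrier of the urea cycle, read 11.80 and 11.44 on the wild-type arrays against 11.86 and 11.58 on the Cnot3+/- arrays. The arrays interleaved, and its difference of 0.10 (SE 0.19) turned to -0.08 without wild-type 2.

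Slc25a29, a carrier gene for basic amino acids, read 7.40 and 7.42 on the wild-type arrays against 7.22 and 7.19 on the Cnot3+/- arrays. Replicates lay within 0.03 of each other, and the difference was -0.21 (SE 0.13, limma adjusted p = 0.999). Its 4 other probe sets gave differences from -0.10 to 0.06. Slc25a22, a glutamate carrier gene, read 9.80 and 10.00 on the wild-type arrays, 9.88 on Cnot3+/- 1 and 10.58 on Cnot3+/- 2, a difference of 0.33 (SE 0.26). The value rested on Cnot3+/- 2, since without it the difference was -0.01. Slc25a38, the glycine carrier gene needed for heme synthesis, differed by 0.03 (SE 0.13) and by -0.01 after quantile normalization. Slc25a44, a branched-chain amino acid carrier gene, differed by 0.08 (SE 0.15) with overlap. Its dimmer probe sets differed by -0.11 and -0.37, both without overlap and with Cnot3+/- lower, and with its probe sets averaged the difference was -0.13.

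The carnitine/acylcarnitine carrier moves long-chain acylcarnitines into the matrix for oxidation and is encoded by Slc25a20. It read 11.52 and 11.35 on the wild-type arrays against 11.26 and 11.34 on the Cnot3+/- arrays. The groups did not overlap, but wild-type 2 and Cnot3+/- 2 were only 0.015 apart. The difference was -0.14 (SE 0.14, 95% interval -0.49 to 0.22, limma adjusted p = 0.999), and -0.05 without wild-type 1. A second probe set, at 10.22 and 10.24 against 10.01 and 10.16, differed by -0.15.

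Carriers of di- and tricarboxylates export citrate and malate for lipid and glucose synthesis. The 3 genes tested of 4 listed had negative differences (2 of 3 with each array centred on its median), none past the threshold. They were -0.0027 (SE 0.23) for the citrate carrier gene Slc25a1, -0.10 (SE 0.21) for the dicarboxylate carrier gene Slc25a10 and -0.08 (SE 0.14) for the oxoglutarate carrier gene Slc25a11. Slc25a1 is the one that turned under centring, to 0.0097. The arrays of both genotypes interleaved in Slc25a1 and Slc25a10. Slc25a1 read 10.24 and 10.61 on the wild-type arrays against 10.19 and 10.66 on the Cnot3+/- arrays, and Slc25a10 read 10.12 and 10.38 against 9.91 and 10.40.

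The iron and glutathione carriers supply heme and iron-sulfur cluster synthesis and the matrix glutathione pool. All 4 listed genes were tested, 2 with positive and 2 with negative differences, none past the threshold (median 0.07). Slc25a39, which encodes a mitochondrial glutathione carrier, read 11.45 and 11.63 on the wild-type arrays against 11.33 and 11.59 on the Cnot3+/- arrays. The arrays interleaved, and the difference was -0.08 (SE 0.16). Its close relative Slc25a40 stood at 4.88 and 4.95 against 5.04 and 5.10, without overlap, and differed by 0.15 (SE 0.13). The mitoferrin genes Slc25a28 and Slc25a37, which import iron, differed by -0.02 (SE 0.18) and 0.17 (SE 0.22). Slc25a37 was lowest in wild-type 1, at 7.25, and lay between 7.57 and 7.79 on the other arrays. The erythroid markers, cells in which Slc25a37 is known to be high, had 2 of 5 measured genes with positive and 3 with negative differences, and their part was not tested.

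The carriers related to the uncoupling proteins were represented by Slc25a14, Slc25a27 and Slc25a30, which differed by -0.05 (SE 0.13), 0.09 (SE 0.14) and 0.03 (SE 0.31). Slc25a30 read 10.03 and 9.96 on the wild-type arrays, 9.57 on Cnot3+/- 1 and 10.48 on Cnot3+/- 2. The Cnot3+/- arrays again lay on opposite sides of wild-type, 0.92 apart. The difference was -0.43 without Cnot3+/- 2 and 0.49 without Cnot3+/- 1, and -0.03 with its probe sets averaged. All 4 of its probe sets past the filter put Cnot3+/- 1 lowest, and on 3 of them Cnot3+/- 2 was highest. A dim probe set left out by the filter put Cnot3+/- 1 highest, at 3.15, and Cnot3+/- 2 lowest, at 2.93.

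Among carriers of other or unsettled substrate, Slc25a47 is known as a liver-specific inner membrane carrier. It read 12.78 and 12.84 on the wild-type arrays, 12.64 on Cnot3+/- 1 and 12.89 on Cnot3+/- 2, with a difference of -0.04 (SE 0.15) that turned to 0.08 without Cnot3+/- 1. It was read by an _s_at probe set, a kind that can match several transcripts. Slc25a48, a carrier gene linked to choline import, read 5.30 and 5.03 on the wild-type arrays against 5.53 and 5.59 on the Cnot3+/- arrays. Both Cnot3+/- arrays were higher, and the difference was 0.40 (SE 0.15, 95% interval 0.0066 to 0.79), or 1.32-fold, with a limma adjusted p of 0.999. Leaving out wild-type 2 made it 0.26, leaving out wild-type 1 made it 0.54, and it was 0.14 and 0.04 on dimmer probe sets.

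Slc25a34, a carrier gene of unsettled substrate, read 6.70 and 6.69 on the wild-type arrays against 6.98 and 6.85 on the Cnot3+/- arrays, a difference of 0.22 (SE 0.13). Slc25a46 encodes an outer membrane member of the family with a role in mitochondrial shape. It stood at 9.43 and 9.42 against 9.63 and 9.54, a difference of 0.16 (SE 0.13). On these probe sets the wild-type arrays lay within 0.01 of each other and both Cnot3+/- arrays were higher, but the limma adjusted p was 0.999. A second probe set of Slc25a46 read 8.89 and 8.98 against 8.99 and 8.93, with overlap and a difference of 0.03, and the average of both differed by 0.10. Slc25a45 and Slc25a53 differed by -0.08 (SE 0.18) and 0.05 (SE 0.13). Of the 6 genes tested in this group 4 had positive differences (median 0.11).

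Probe sets of the same gene gave a check on single values. Of the 38 genes, 19 had several probe sets past the filter. In 12 of these the differences had 1 sign, and in 7 they had both. The widest spread was that of Slc25a25, whose probe sets gave 0.63, 0.31 and 0.02. Slc25a17 and Slc25a20 were the 2 genes in which every probe set past the filter separated the genotypes the same way, in both cases with Cnot3+/- lower. The share over all genes with several probe sets was not counted, so whether 2 of 19 is unusual was not tested. Probe sets of a gene were read on the same arrays, so their agreement does not check differences between animals. Slc25a5 had 8 probe sets past the filter, which ran from -0.10 to 0.07. For Slc25a42 a dimmer probe set gave -0.15, opposite in sign to the 0.25 of the one used.

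**Figure D2:**
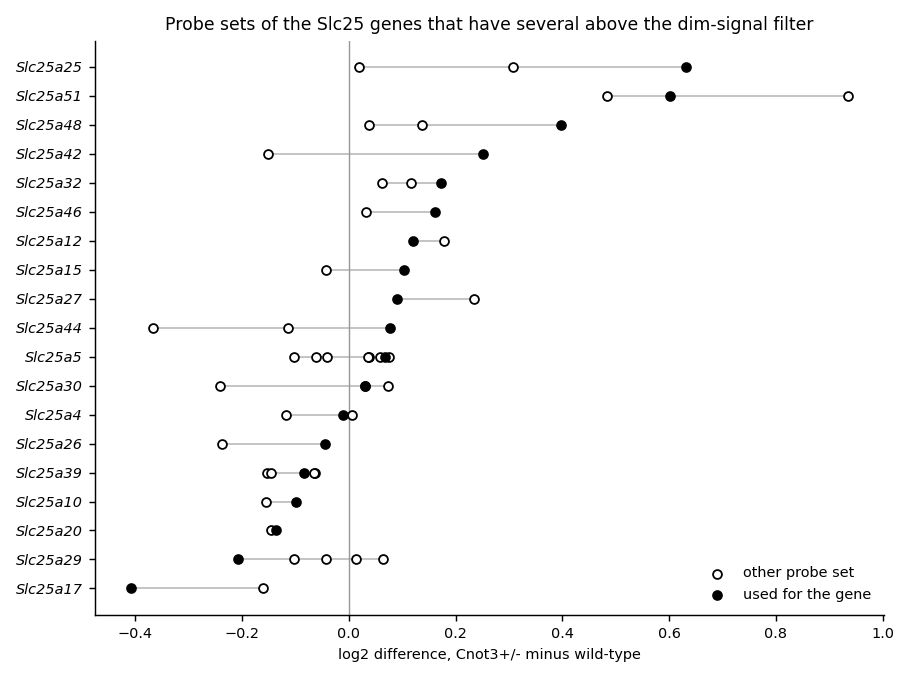
Log2 difference Cnot3+/- minus wild-type for each probe set past the dim-signal filter, in the 19 Slc25 genes with several. Filled points are the probe sets used for the gene, open points the others, and grey lines join the lowest and highest. All probe sets of Slc25a51 lie between 0.48 and 0.94, while those of Slc25a44 run from -0.37 to 0.08.

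Arrays of the same genotype also lay apart, and by different amounts from gene to gene. The median gap between the wild-type arrays was 0.15 over the Slc25 genes, beside 0.18 over all genes tested, and that between the Cnot3+/- arrays was 0.22, beside 0.18. On the probe set used, none of the 38 Slc25 genes lay 2-fold apart within a genotype. Of all 13379 genes tested, 74 did in wild-type and 432 in Cnot3+/-, shares so small that a count of 0 among 38 says little. A second probe set of Slc25a4 lay over 2-fold apart, at 5.47 on Cnot3+/- 1 and 6.90 on Cnot3+/- 2. On the probe sets used, the wild-type arrays were over 0.5 apart for Slc25a23, Slc25a25, Slc25a37, Slc25a42 and Slc25a51, and wild-type 1 was the lower array in each. That was 13.2% of the 38, beside 8.46% of all genes tested. The Cnot3+/- arrays were over 0.5 apart for Slc25a4, Slc25a22, Slc25a24, Slc25a30 and Slc25a36, and Cnot3+/- 2 was the higher array in each. That was also 13.2%, beside 11.4%. No gene was in both groups, and the share of all genes in both was not counted. The difference exceeded both gaps in 7 genes, Slc25a16, Slc25a17, Slc25a29, Slc25a34, Slc25a40, Slc25a46 and Slc25a48, or 18.4%, beside 20.2% of all genes tested.

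**Figure D3:**
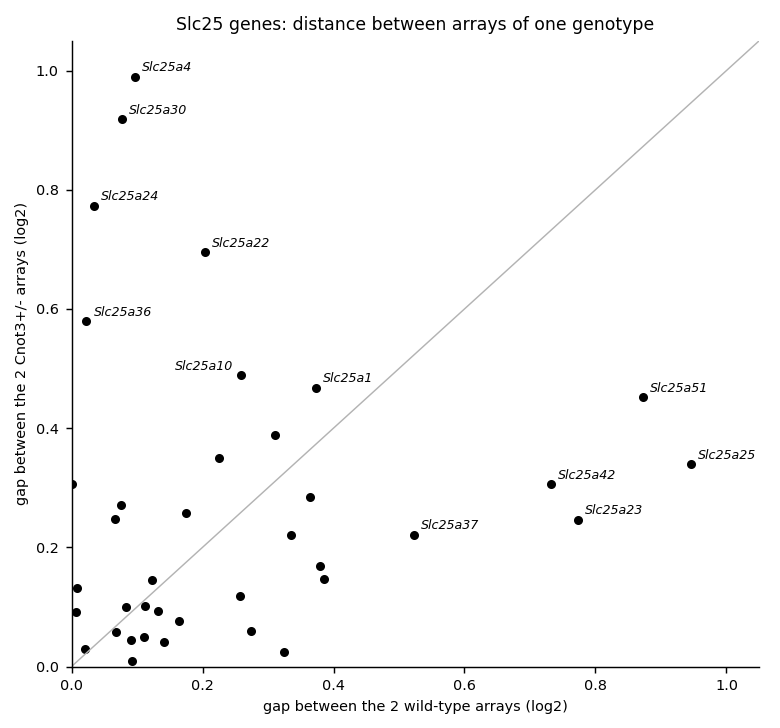
Distance of wild-type 1 from wild-type 2 (x axis) and of Cnot3+/- 1 from Cnot3+/- 2 (y axis), in log2 units, for each of the 38 Slc25 genes. The grey line marks equal gaps. The 5 genes far along each axis are different ones, which was not compared with all genes tested. Slc25a25 lies at 0.95 between the wild-type arrays and Slc25a4 at 0.99 between the Cnot3+/- arrays.

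Genes that work with the carriers gave no calls either. Of the TOM and TIM22 genes that import carriers, 10 of 10 had negative differences, from -0.25 to -0.01, or 9 of 10 with each array centred on its median, where Timm10b turned. None passed the limma threshold in either direction. Their median was -0.08, and 3 of 10 separated the genotypes with Cnot3+/- lower, beside 17.4% of all genes tested. Negative differences were 6976 of 13379 over all genes tested. The 10 genes were read on the same 4 arrays, and their shared sign was not tested. The list mean lay at 0.05 and -0.05 in wild-type 1 and 2, and at -0.09 and -0.13 in Cnot3+/- 1 and 2. Tomm22, a receptor of the TOM complex, had the largest difference, with 9.19 and 9.06 on the wild-type arrays against 8.92 and 8.82 on the Cnot3+/- arrays (-0.25, SE 0.14). The intermembrane chaperone gene Timm9 differed by -0.22 (SE 0.16). Respiratory chain subunits, 25 of 27 measured, had a median of -0.08 as well, with 8 positive and 17 negative differences.

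Of the family members under other symbols, Ucp3 and the outer membrane protein gene Mtch1 differed by -0.07 (SE 0.13) and 0.12 (SE 0.15), and 1 of 3 tested had a positive difference. Of 11 other mitochondrial transport genes 4 had positive and 7 negative differences. The largest were those of Letm1, an ion transport gene, at 0.29 (SE 0.15), and of the pyruvate carrier gene Mpc1, at -0.25 (SE 0.16). Mpc1 read 11.59 and 11.31 on the wild-type arrays against 11.25 and 11.15 on the Cnot3+/- arrays, without overlap. None of these 14 genes passed the threshold.

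Enzymes that use the carried metabolites were similar. In the malate-aspartate and citrate shuttle list 5 of 7 genes had positive differences (4 after quantile normalization), led by the aspartate aminotransferase gene Got1 at 0.54 (SE 0.32), which stood at 12.24 in Cnot3+/- 1 and between 11.11 and 11.36 on the other arrays. The citrate lyase gene Acly, which acts on exported citrate, differed by -0.39 (SE 0.20). In the urea cycle and glutamate list 4 of 6 had positive differences. Ass1, the argininosuccinate synthase gene, had the largest, with 6.71 and 6.63 on the wild-type arrays against 7.66 and 7.09 on the Cnot3+/- arrays (0.71, SE 0.22). That probe set was dim beside the list, whose mean log2 value lay between 11.80 and 12.04 on the 4 arrays, and which transcript it reads was not tested. Asl differed by -0.19 (SE 0.19). In the carnitine shuttle list 2 of 4 had positive differences, and Crat and Crot differed by -0.16 (SE 0.26) and 0.06 (SE 0.15). None of these 17 genes had a limma adjusted p below the threshold.

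**Figure D4:**
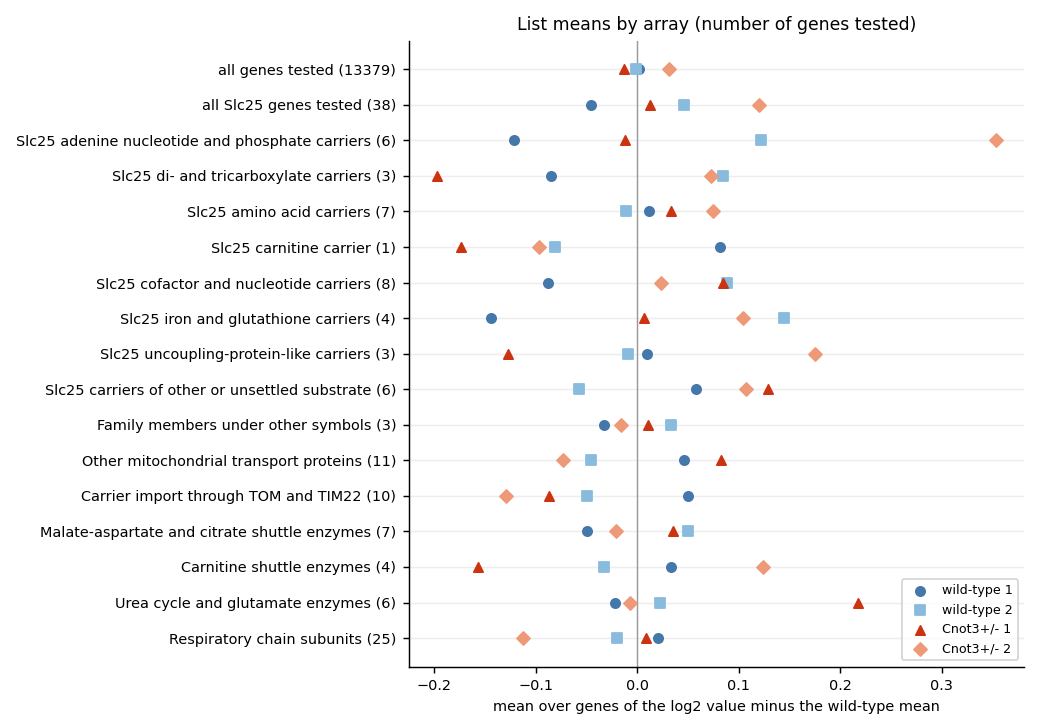
Mean over the genes of each list of the log2 value minus the wild-type mean, for each of the 4 arrays, with the number of genes tested in brackets. The adenine nucleotide and phosphate carriers lie at 0.35 in Cnot3+/- 2 and at -0.01 in Cnot3+/- 1, and the TOM and TIM22 list lies below 0 in wild-type 2 and in both Cnot3+/- arrays.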

How the data were processed

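Log2 expression values per probe set were deposited by the authors, and the submitters' processing notes name RMA, which corrects background, normalizes across arrays and shrinks differences of dim probe sets. No version of RMA is given, nor the set of arrays it was run on. The log2 scale was taken from the values. All 4 columns were mapped to samples.

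Gene symbols came from the platform annotation, and all 44 Slc25 symbols matched RefSeq (GRCm38.p6) by Entrez identifier. The family was matched by symbol, and 1 probe set naming Slc25a37 with a second gene was left out. Probe sets with a mean log2 value up to 4.06 (the lowest 40%) were left out. For each gene the probe set of highest mean was used, with _x_at and _s_at probe sets used only where there was no other. Signals of different probe sets are not comparable as transcript levels. The genotype effect was fitted by lmFit and eBayes of limma 3.58.1 under R 4.3.3 and tested two-sided, with Benjamini-Hochberg adjustment over all genes tested and 2 residual degrees of freedom (prior 3.17). SE is the moderated standard error. The script was tested on simulated data.

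Genes named with array values are up to 6 of largest difference in each direction whose groups do not overlap, the 6 of largest mean signal, genes whose probe sets differ by over 0.5, and 4 carriers of known liver role. From each list of partner genes the 2 of largest difference are named. Other Slc25 genes given with array values were chosen after their values were seen. The members and all lists were chosen with earlier results of these data known. Alternatives were other filters, normalizations, probe set rules, variance models, the replicate block and each array left out.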

Additional observations from a re-analysis of the deposited data

How the results depend on the processing

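No Slc25 gene passed the threshold in any of the 10 alternatives or with any array left out. With an array left out, the lone array is assumed to vary like the other genotype's pair, so the lack of calls there says nothing about stability. Over all genes tested, 2 genes passed, both with a positive difference. With no moderation of variances neither passed and 1 gene with a negative difference did. The count was 0 with the replicate number as a block (replicate block) and 0 to 38 with an array left out: 0 without wild-type 1 or wild-type 2, and 38 without Cnot3+/- 1. Over genes, replicate 1 minus 2 correlated at 0.159 between the genotypes. The numbers are not known to pair the animals. Slc25 genes whose groups do not overlap were 22 with probe sets as the features, or 28.6% of the 77 Slc25 probe sets against 31% of all. They were 21 to 28 with an array left out, where 1 array faces 2: 55.3% against 61.2% of all genes without wild-type 1, 73.7% against 69.4% without wild-type 2, 63.2% against 68% without Cnot3+/- 1 and 65.8% against 63.9% without Cnot3+/- 2. The Slc25 median difference ran from 0.01 to 0.07 with an array left out (0.0149 without wild-type 1, 0.0672 without Cnot3+/- 1) and from 0.0032 with probe sets averaged to 0.0535 with arrays centred.

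Of 376 values of Slc25 genes under the 10 alternatives, 371 kept their direction. The other 5 were Slc25a38 at -0.0122 after quantile normalization, Slc25a4 at 0.001 and Slc25a1 at 0.0097 with arrays centred, and Slc25a30 at -0.0271 and Slc25a44 at -0.1346 with probe sets averaged. The variance models, the replicate block, probe sets as the features and no filter on dim signal left every one of these differences unchanged. The stricter filter left out Slc25a24, Slc25a27, Slc25a40 and Slc25a53 as dim, and of the 34 genes left it changed Slc25a26 alone, to -0.24. Genes without overlap were then 3 higher and 7 lower, or 29.4% in either direction, beside 30.5% of all genes. Directions could not turn where the difference stayed the same, so much of the 371 says nothing about stability. With an array left out, 18 of 38 genes kept their direction every time. Of these, ranges not given in full above that spanned over 1.5 times follow. Between leaving out Cnot3+/- 1 and Cnot3+/- 2, Slc25a32 ran from 0.0367 to 0.31, Slc25a11 from -0.16 to -0.0124 and Slc25a3 from -0.14 to -0.0416. Slc25a34 ran from 0.15 to 0.28 and Slc25a46 from 0.12 to 0.21 likewise. Between leaving out wild-type 2 and wild-type 1, Slc25a13 ran from -0.13 to -0.034, Slc25a20 from -0.22 to -0.054 and Slc25a5 from 0.013 to 0.12. For Slc25a53 the range was 0.0035 to 0.0945, for Slc25a27 0.16 to 0.0237 and for Slc25a40 0.19 to 0.12. The other 20 turned, beginning with Slc25a10 from -0.34 to 0.14, Slc25a39 from -0.21 to 0.0442, Slc25a45 from -0.27 to 0.11, Slc25a14 from -0.11 to 0.0061 and Slc25a26 from -0.21 to 0.12. There were also Slc25a47 from -0.17 to 0.0804, Slc25a23 from -0.41 to 0.36, Slc25a28 from -0.21 to 0.17, Slc25a4 from -0.51 to 0.48 and Slc25a1 from -0.24 to 0.23. Further ranges were those of Slc25a30 from -0.43 to 0.49, Slc25a38 from -0.037 to 0.10, Slc25a44 from -0.0519 to 0.21, Slc25a15 from -0.0791 to 0.29 and Slc25a36 from -0.18 to 0.40. The remaining ranges were those of Slc25a12 from -0.042 to 0.28, Slc25a33 from -0.0503 to 0.34, Slc25a37 from -0.0929 to 0.43, Slc25a42 from -0.11 to 0.62 and Slc25a22 from -0.0148 to 0.68. The cause of these turns was not tested beyond the values of the arrays left out.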
